A study of Mus musculus with 6 samples.

Results

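Lungs of mice that had received medium conditioned by PC3 cells were compared with lungs of mice that had received plain RPMI medium. The comparison uses 4 of the 6 lungs of the study, taken by their group labels, 2 from each side. All were whole lungs of C57BL/6 mice, 8 weeks old, injected daily into the peritoneum with 100 uL for 7 days. The Control mice (replicates 2 and 4) were given RPMI, an unconditioned culture medium, and the PC3 mice (replicates 4 and 5) the medium of PC3 cells, which derive from a human prostate carcinoma. The labels disagree here: the growth notes of every sample, Controls included, speak of conditioned medium, while the design text gives plain RPMI to the Controls and was followed. The other 2 mice of the study received medium of PC3M-LN4 cells, a metastatic derivative of that line, and enter here only as levels beside a few results. Each mouse gave 1 array of the Affymetrix Mouse Gene 1.0 ST type. The labels give no sex. Xist, the X-inactivation RNA of female cells, lay between 9.97 and 10.44 on all 6 arrays, and 4 Y-linked genes lay between 2.82 and 4.16, under the filter on dim probe sets. No untreated lungs were among the samples, so every value is relative to injection of plain medium, and neither the animals' housing nor the serum content of the media is given in the labels.

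Tumour cells release proteins, vesicles and metabolites into their medium, and such medium can act on organs that no tumour cell has reached. A whole lung mixes alveolar epithelium and its surfactant-making cells, conducting airways with club, goblet and ciliated cells, dense capillaries, blood leucocytes and platelets, resident macrophages, fibroblasts and the mesothelium that covers the organ. Levels below are log2 RMA values, so that a difference of 1 is a doubling, and differences are PC3 minus Control with the standard error (SE) of a limma fit to the 4 arrays. In bulk tissue, fewer cells of a type and less RNA per cell cannot be told apart.

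The arrays differed in ways that bear on each result. Exon-level probe sets that the chip report called detected made up 38.4% of the total on Control 2 and 39.8% on PC3 4, the low-detection pair, and 48.4% on Control 4 and 50.9% on PC3 5, the high-detection pair. Each pair holds 1 lung of each group, so differences are also given within each pair. The 2 Control arrays correlated at 0.994 across probe sets and the 2 PC3 arrays at 0.984, and the median SD was 0.12 in Control and 0.17 in PC3 lungs. PC3 4 carried genes of stratified squamous epithelium. Krt13, a keratin of such epithelium, was at 10.63 there against 5.16, 4.63 and 5.06 on Control 2, Control 4 and PC3 5, Krt4 at 10.03 and Sprr3, a cornified envelope protein, at 9.09. On PC3 4, 29 probe sets lay over 2-fold above the other 3 arrays and 100 below. On PC3 5, 57 lay above and 22 below, and on each Control array 4 above and 1 below. Background is taken here as the 95th percentile of an array's negative controls, which was 7.49 to 7.66 over the 4 arrays.

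Of 21330 probe sets tested, 0 (0%) passed an adjusted p of 0.05 by limma with Benjamini-Hochberg adjustment, and the smallest adjusted p was 0.0663. At an unadjusted p under 0.05, 273 (1.28%) had a higher mean in PC3 lungs and 640 (3%) a lower one. Both PC3 arrays lay above both Control arrays for 3495 probe sets (16.4%) and below both for 3268 (15.3%). With a difference of at least 1.5-fold as well, these became 93 (0.436%) and 331 (1.55%). With arrays scaled to their 75th percentile, the first counts were 167 higher and 711 lower, so the share of higher ones moved from 29.9% to 19.0%. An exact permutation test of 2 against 2 cannot give a two-sided p under 0.333. The values below are therefore descriptions of 4 lungs, and the adjusted p of the genes named by rule lay between 0.222 and 0.847. Among genes with 1 probe set each, 45 higher and 91 lower ones had at least 1.5-fold differences, arrays that did not overlap and a higher group above background, and the 15 of smallest p on each side are plotted.

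**Figure D1:**
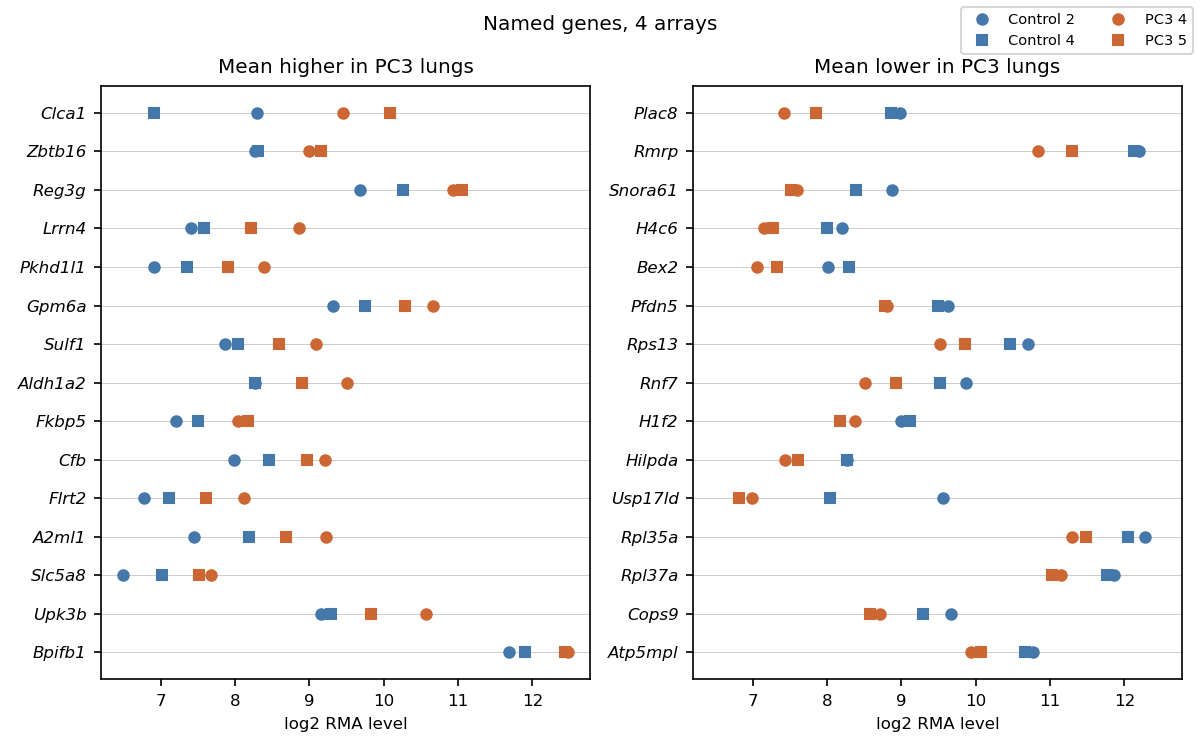
Log2 RMA level of the 15 named genes with a higher mean (left) and the 15 with a lower mean (right) in PC3 lungs, with 1 point per array. Blue marks Control and orange PC3, circles the low-detection and squares the high-detection array of each group. Genes were picked for groups that do not overlap, so the gap between colours is by choice, and Clca1 and Usp17ld show the widest spread within Control.

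Among the higher genes named by rule were 3 secreted products of the airway lining. Clca1, a protein secreted with mucus by goblet cells, was at 8.30 and 6.90 on Control 2 and Control 4 and at 9.45 and 10.09 on PC3 4 and PC3 5. Both PC3 lungs were above both Control lungs, and Control 4 lay below the background level. The difference was 2.16 (SE 0.43), a 4.48-fold higher mean, with an adjusted p of 0.679 by limma, and the SD within Control was 0.99. Reg3g, a bactericidal lectin of epithelia, was at 9.68 and 10.26 in Control and at 10.93 and 11.05 in PC3 lungs. Its difference of 1.02 (SE 0.22) was above the gap between the Control lungs. Bpifb1, an airway secretory protein of the lipid-binding BPI fold family, was at 11.69 and 11.90 in Control and 12.48 and 12.43 in PC3 lungs, a difference of 0.66 (SE 0.17) with little spread in either group.

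Of 22 tested genes of club and secretory airway cells, 19 had higher means against 56.7% of all 16996 genes tested. For 14 of them both PC3 arrays lay above both Control arrays (18% of all genes), and 7 had an unadjusted p under 0.05 (1.4% of all genes). Their median difference was 0.26 against 0.03 for all genes, with 0.28 in the low-detection and 0.10 in the high-detection pair. It was 0.13 without Control 2 and 0.22 without PC3 4. Without PC3 4, 21 of 22 were higher, against 50.4% of all genes. Bpifa1, a relative of Bpifb1 in airway fluid, was at 11.64 and 12.16 in Control and 12.94 and 12.50 in PC3 lungs. Cyp2a5, a cytochrome P450 that oxidises inhaled and dietary compounds, was at 9.45 and 10.08 against 10.56 and 10.60. The main club cell secretoglobins stood on the other side: Scgb3a2 was at 12.57 and 12.62 in Control and 12.32 and 12.21 in PC3 lungs, and Scgb1a1 differed by -0.17 (SE 0.19) with overlapping groups. Scgb3a2 separated the groups and Scgb1a1 did not.

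Genes of the mesothelium, the cell layer on the pleural surface, had higher means in all 16 tested members. Of these, 13 were higher within both detection pairs (33.8% of all genes), 12 had both PC3 arrays above both Control arrays, and 9 had an unadjusted p under 0.05. The other shares over all genes were 56.7% with higher means, 18% separated upwards and 1.4% with such a p. Lrrn4, a leucine-rich repeat membrane protein, was at 7.41 and 7.59 in Control and at 8.86 and 8.21 in PC3 lungs. Gpm6a, a membrane glycoprotein, was at 9.32 and 9.74 against 10.66 and 10.28, and Upk3b, a uroplakin of mesothelium, at 9.16 and 9.29 against 10.56 and 9.83. In each of these genes the groups did not overlap and PC3 4 was the higher of the PC3 lungs. Sulf1, which trims sulphate from heparan chains, differed by 0.89 (SE 0.21), while Aldh1a2, which makes retinoic acid, differed by 0.94 (SE 0.23).

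The size of the mesothelial difference depended on the lung. The median over the 16 genes was 0.66, with 1.20 between PC3 4 and Control 2 and 0.26 between PC3 5 and Control 4. Without PC3 4 it was 0.40, with 15 of 16 members higher against 50.4% of all genes, and without PC3 5 it was 1.07. PC3 4 is also the array with squamous genes, of which 18 of 20 tested members had a higher mean, with a median of 0.62 in the low-detection pair and -0.19 in the high-detection pair. Without PC3 4, 5 of these 20 were higher, against 50.4% of all genes. Krt5, a basal keratin, was at 5.43 and 5.07 in Control and 7.43 and 5.56 in PC3 lungs, so that only the 1 lung reached near the background level. PC3 5 lay above both Control lungs for 12 of the 16 mesothelial genes, and for 6779 of all 16996 genes. The part of squamous tissue in the mesothelial values was not tested. Further named genes had the same order of arrays as the mesothelial ones. Pkhd1l1, a large membrane protein related to fibrocystin, was at 6.91 and 7.35 in Control and 8.39 and 7.90 in PC3 lungs. Flrt2, a cell adhesion protein, was at 6.78 and 7.11 against 8.12 and 7.60. A2ml1, a protease inhibitor of stratified epithelia, was at 7.45 and 8.19 against 9.23 and 8.68, and Slc5a8, a sodium-coupled monocarboxylate transporter, at 6.50 and 7.02 against 7.68 and 7.52. All 4 lay under background in at least 1 Control lung.

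Complement and acute phase genes, whose products circulate in plasma but are also made in the lung, had higher means in 23 of 27 tested members. Both PC3 arrays lay above both Control arrays for 15 of them, and 6 had an unadjusted p under 0.05. The shares over all genes were 56.7% with higher means, 18% separated upwards and 1.4% with such a p. Cfb, factor B of the alternative complement pathway, was at 7.99 and 8.46 in Control and 9.22 and 8.97 in PC3 lungs, a 1.82-fold higher mean. C3, the central complement protein, was at 11.02 and 11.40 in Control and had a mean higher by 0.65 (SE 0.20) in PC3 lungs, of which PC3 5 was the lower at 11.71. Lbp, which carries bacterial lipopolysaccharide to its receptor, was at 9.41 and 9.63 against 10.12 and 10.13. Each of these separated the groups. Ltf, the iron-binding lactoferrin of secretions and neutrophil granules, differed by 0.73 (SE 0.22). The other direction was held by Cfd, factor D, at 7.64 and 8.66 in Control and 7.76 and 7.54 in PC3 lungs, with overlap, and by Orm1, which lay under background on all arrays. The list median was 0.30, with 0.32 in the low-detection and 0.22 in the high-detection pair. Without PC3 4 it was 0.24, with 21 of 27 higher against 50.4% of all genes.

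**Figure D2:**
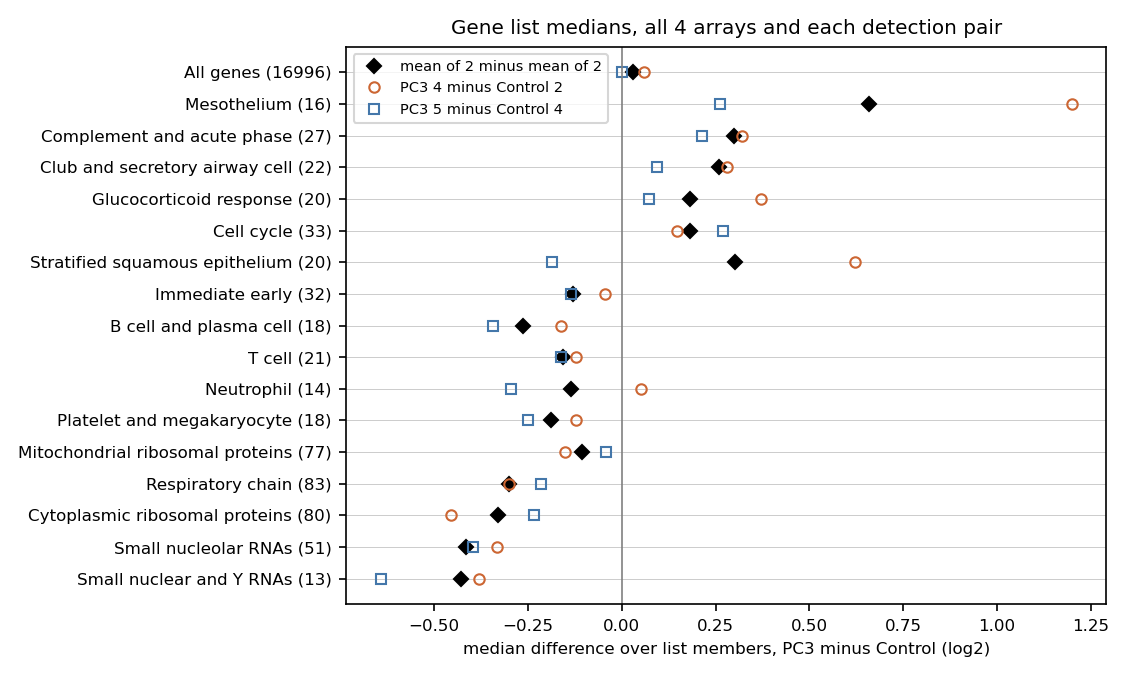
Median difference over the tested members of 16 gene lists and over all genes (number of genes in brackets), PC3 minus Control on the log2 scale. Diamonds use all 4 arrays, circles the low-detection and squares the high-detection pair. The mesothelial median is 1.20 in one pair and 0.26 in the other, the squamous one changes sign, and the ribosomal, respiratory chain and small RNA medians are below 0 in both pairs.

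Zbtb16 and Fkbp5, 2 targets of the glucocorticoid receptor, separated the groups by more than the spread within either group, while most of the list overlapped. Zbtb16, a transcription factor induced by glucocorticoids in many tissues, was at 8.27 and 8.32 in Control and at 9.0 and 9.15 in PC3 lungs, a difference of 0.78 (SE 0.17), with 0.73 and 0.84 within the pairs. Fkbp5, a co-chaperone of the receptor and one of its best known targets, was at 7.21 and 7.51 against 8.04 and 8.17. Both were above background in both PC3 lungs, and the difference was over 3 times the SD of either group. Of the 20 tested genes of the list, 17 had higher means, 6 separated the groups and 3 had an unadjusted p under 0.05, with a median of 0.18, and 0.37 and 0.07 within the pairs. Over all genes these shares were 56.7%, 18% and 1.4%, and the list median was 0.06 without Control 2. Rasd1, a small G protein, was at 6.92 and 6.75 against 7.32 and 7.21, under background throughout. Cdkn1a, a cell cycle inhibitor, differed by 0.38 (SE 0.17). Mt1, a metallothionein, was 1 of 3 members with a lower mean, at 10.09 and 10.15 in Control and 10.01 and 9.80 in PC3 lungs.

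Sgk1, the serum- and glucocorticoid-regulated kinase, was at 7.77 and 8.04 in Control and at 8.14 and 8.32 in PC3 lungs, and is described for its promoter. The receptor binds as a dimer to inverted copies of AGAACA spaced by 3 bases. The motif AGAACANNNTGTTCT, which reads the same on both strands, was searched in the 250 bases before each RefSeq start. It was found in 1 of the 16 genes of the list with a promoter in the table, Sgk1, and in 3 of all 27025 genes there (0.0111%). The Sgk1 stretch lies on the plus strand at chr10:21993640-21993889 of GRCm38.p6, from RefSeq, and capitals mark the motif, which begins 189 bases before the start:
Sgk1: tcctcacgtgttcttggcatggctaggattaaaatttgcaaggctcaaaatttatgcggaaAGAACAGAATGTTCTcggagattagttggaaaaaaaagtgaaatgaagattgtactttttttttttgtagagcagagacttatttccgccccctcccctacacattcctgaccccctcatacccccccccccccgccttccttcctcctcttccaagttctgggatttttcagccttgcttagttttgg
The match describes these letters only, and the 2 Control and 2 PC3 lungs differed by 0.32 (SE 0.18) for this gene. Clock genes, which follow the hour of sampling as well as glucocorticoids, were split: Cry1, a repressor of the clock, was at 6.54 and 6.76 against 7.10 and 6.98, while Nr1d1, a nuclear receptor of the clock, was at 10.17 and 10.53 against 10.00 and 9.98. The hour at which lungs were taken is not given in the labels.

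Immediate early genes, which cells switch on within minutes of a stimulus or of handling, leaned the other way. Of 32 tested, 19 had lower means (43.3% of all genes), both PC3 arrays lay below both Control arrays for 13 (13.6% of all genes) and 5 had an unadjusted p under 0.05 (1.9% of all genes). Egr1, a zinc finger factor, was at 7.85 and 7.52 in Control and 7.00 and 6.60 in PC3 lungs. Ccn1, a matricellular protein, was at 10.36 and 10.43 against 9.78 and 9.78, and Ier3, a survival factor, at 10.34 and 10.07 against 9.57 and 9.61. Nr4a1, an orphan nuclear receptor, differed by -0.64 (SE 0.19). These 4 separated the groups, whereas the list median was -0.13, which was -0.05 in the low-detection pair, -0.08 without Control 4 and -0.03 without PC3 5, and Myc, at 6.38 and 6.56 against 6.68 and 6.70, had the higher mean. The time between death and extraction is not given in the labels, and its part in these values was not tested.

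The largest group of lower genes encodes cytoplasmic ribosomal proteins, the proteins of the 80S ribosome. Of 80 tested, 72 had lower means, 61 had both PC3 arrays below both Control arrays, and 28 had an unadjusted p under 0.05. The shares over all genes were 43.3%, 13.6% and 1.9%. Rps13 was at 10.70 and 10.46 in Control and 9.53 and 9.86 in PC3 lungs, a 1.85-fold lower mean. Rpl35a was at 12.28 and 12.05 against 11.30 and 11.48, Rpl37a at 11.87 and 11.76 against 11.15 and 11.03, and Rps15 at 12.37 and 12.31 against 11.66 and 11.65. The gap between groups was over 3 times that within Control for Rps15 and Rpl37a. Rpl10 had the smallest p of those with a higher mean, at 12.79 and 13.01 in Control and 13.01 and 13.20 in PC3 lungs, and Rpl29 differed by 0.07 (SE 0.17). The list median was -0.33, and it was below 0 in each pair, at -0.45 and -0.23. Without PC3 4 it was -0.24, with 67 of 80 lower, against 8438 of all 16996 genes. Ribosomal protein genes have many processed pseudogenes, and probes may read both.

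Messenger RNAs of ribosomal proteins begin with a run of pyrimidines, by which cells regulate their translation. The letters CTTTCC, of the kind found in that run, were searched on the gene's strand within 50 bases either side of each RefSeq start. They were found for 18 of the 59 ribosomal protein genes in the promoter table (30.5%), and for 5.43% of all genes there. The 4 genes of smallest p that hold it are shown, with 30 bases each and the motif in capitals, from RefSeq GRCm38.p6 at chr16:33056472-33056501 (plus), chr11:68901579-68901608 (plus), chr2:39005119-39005148 (minus) and chrX:134585674-134585703 (plus):
Rpl35a: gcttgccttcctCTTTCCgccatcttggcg
Rpl26: gcgtgtagttctCTTTCCttttgcggccat
Rpl35: gtcggccccgccCTTTCCtctttctctcga
Rpl36a: gctctagcctctctCTTTCCgagctgctag
All of these were lower on both PC3 arrays than on both Control arrays. Rpl26 was at 9.45 and 9.19 in Control and 8.72 and 8.57 in PC3 lungs. Rpl35 differed by -0.55 (SE 0.18) and Rpl36a by -0.53 (SE 0.17). The motif begins 5 bases before the RefSeq start in Rpl35 and after that start in Rpl35a, Rpl26 and Rpl36a. A match therefore need not lie in the first bases of the messenger RNA. The motif is a description of sequence, not a cause of the difference.

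Subunits of the mitochondrial respiratory chain and ATP synthase, which are small and abundant transcripts too, were lower in 69 of 83 tested members. Of these, 57 were lower within both detection pairs (24% of all genes), 52 separated the groups and 25 had an unadjusted p under 0.05. The other shares over all genes were 43.3% with lower means, 13.6% separated downwards and 1.9% with such a p. Atp5mpl, a small subunit of ATP synthase, was at 10.77 and 10.67 in Control and 9.94 and 10.07 in PC3 lungs, and Atp5l, another, at 10.23 and 9.91 against 9.09 and 9.46. Uqcrh, the hinge protein of complex III, was at 11.51 and 11.11 against 10.64 and 10.42, and Ndufb10, of complex I, at 8.56 and 8.30 against 7.83 and 7.67. All 4 separated the groups. Ndufs8 and Ndufa10, also of complex I, had differences of 0.18 (SE 0.16) and 0.16 (SE 0.17). The list median was -0.30, with -0.30 and -0.22 within the pairs. Proteins of the mitochondrial ribosome were less shifted, with 57 of 77 lower, 1 member at an unadjusted p under 0.05 and a median of -0.10. That member, Mrpl22, was at 6.03 and 6.24 against 5.54 and 5.43, under background. Proteasome subunits had a median of -0.09 with 23 of 38 lower, among them Psmb4, at 10.55 and 10.43 against 10.18 and 9.86.

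Small non-coding RNAs had mostly lower means. Rmrp, the RNA of the RNase MRP enzyme that processes ribosomal RNA, was at 12.20 and 12.13 in Control and at 10.84 and 11.30 in PC3 lungs, a 2.14-fold lower mean. Snora61, which guides pseudouridylation, was at 8.87 and 8.39 against 7.60 and 7.51. Rny1, a Y RNA bound by the Ro protein, was at 6.28 and 6.02 against 4.80 and 4.83, under background on every array, with an adjusted p of 0.081 by limma. Rnu2-10, the U2 RNA of the spliceosome, was at 11.70 and 11.18 against 10.49 and 8.84. Its difference was -1.77 (SE 0.48), with an SD of 1.17 within PC3. U2 has near-identical gene copies, whose probe sets cannot be counted as separate genes. Of 51 tested small nucleolar RNAs, 43 had lower means, 26 separated the groups and 20 had an unadjusted p under 0.05. Among all genes these shares were 43.3%, 13.6% and 1.9%. The median of the small nucleolar RNAs was -0.41, with -0.33 and -0.40 within the pairs. Of the 64 on the array, 49 were above background on no array and 8 on all 4. Of 13 small nuclear and Y RNAs, 12 were lower, with a median of -0.43, which was -0.38 and -0.64 within the pairs and -0.87 without PC3 4. Snord14e went the other way, at 7.11 and 7.89 in Control and 8.01 and 7.99 in PC3 lungs.

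The lowest p-values belonged to probe sets that the annotation hardly names. All 21 probe sets that the deposited annotation names Snord116, a small nucleolar RNA, were at least 2-fold lower, but they hold only 4 distinct sets of values, 18 of them identical, and RefSeq gives their accession another symbol, Gm26504. Those 18 were at 5.84 and 5.57 in Control and at 4.24 and 3.79 in PC3 lungs, under background on all arrays, with a difference of -1.69 (SE 0.21) and an adjusted p of 0.0663 by limma. A transcript without a gene name (ENSMUSG00000074566), placed by the deposited description at chr9:3001070-3002330 on the plus strand of NCBIM37, was at 11.69 and 11.01 in Control and at 6.34 and 7.89 in PC3 lungs. PC3 4 was under background there and the other 3 arrays above it, so the difference of -4.24 (SE 0.47) is partly against a signal that was not measured. A second probe set of that gene was at 9.20 and 8.44 against 4.08 and 5.74, the PC3 values under background, and a long non-coding RNA overlapping it at chr9:3000824-3003688 on the minus strand (ENSMUSG00000087580) at 10.63 and 9.91 against 6.71 and 7.74. The groups stayed apart by more than 2 units in all 3 probe sets. In total 22 unnamed probe sets were at least 2-fold lower and 0 at least 2-fold higher, against 48 and 17 with a gene name. The 48 include the 21 Snord116 probe sets with their 4 distinct sets of values, so they are not 48 separate genes.

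Some of these RNAs also differed between the 2 LN4 lungs, which shared 1 treatment. The chromosome 9 transcript was at 11.49 on LN4 1 and 7.20 on LN4 3, Snord116 at 6.12 and 4.02, and Rnu2-10 at 11.75 and 9.33. These 2 lungs of 1 group differed by more than the PC3 mean differed from the Control mean, for each of these 3 RNAs. The 2 LN4 lungs were not alike in tissue, however. The median level of squamous genes was 11.08 on LN4 3 and 5.79 on LN4 1, and that of skeletal muscle genes 10.08 and 5.74. The LN4 gap is therefore not a plain measure of spread within 1 treatment, and the part of that tissue in it was not tested. The gap between LN4 lungs was smaller than the difference between PC3 and Control means for Rny1, at 6.17 and 5.77. The same held for Rmrp, at 12.49 and 11.65, and for Snora61, at 9.03 and 8.01. By the wording of the deposited descriptions, 31 of 107 tested snoRNA, 20 of 87 snRNA and 8 of 45 5S rRNA probe sets lay lower on both PC3 arrays (15.3% of all probe sets), with medians of -0.17, -0.09 and -0.09. The 13 mitochondrial transfer RNAs had a median of -1.27 in the low-detection pair and 0.18 in the high-detection pair, so their lower mean rests on PC3 4. How much small RNA each extraction kept was not measured in these files, and its part was not tested.

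**Figure D3:**
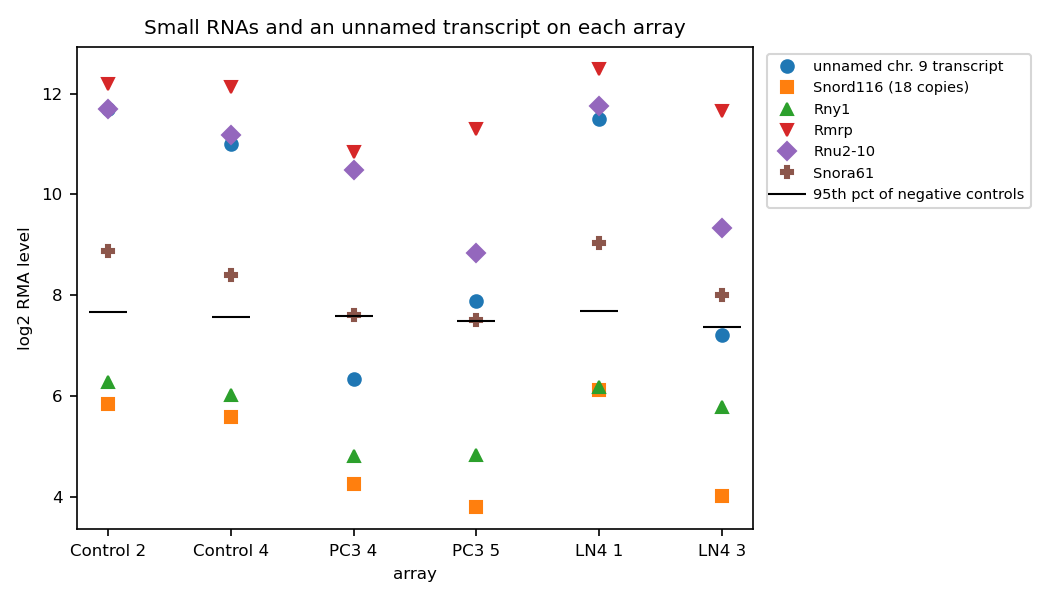
Log2 RMA level of 5 small RNAs and of the unnamed chromosome 9 transcript on the 6 arrays, with the 95th percentile of the negative controls as black dashes. Both PC3 lungs are below both Control lungs for each, LN4 1 is near the Control lungs, and LN4 3 is lower than LN4 1. LN4 3 also carried squamous and skeletal muscle genes.

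Difference and gene length moved together across the transcriptome. Genes were split into 5 groups of about equal number by their genomic span in RefSeq, available for 16658 genes (98.0%). In the shortest group, up to 5.92 kb, the median difference was -0.04, 22.1% of genes had both PC3 arrays below both Control arrays and 9.9% had them above. In the longest group, from 65.0 kb, the median was 0.08 and these shares were 8.4% and 22.6%. The shortest genes had a lower median than the longest in each pair, with -0.01 and 0.10 in the low-detection and -0.09 and 0.05 in the high-detection pair. Median spans were 3.17 kb for ribosomal protein genes (list median -0.33) and 7.13 kb for respiratory chain genes (-0.30). Those of complement, airway secretory and mesothelial genes were 9.02, 12.4 and 26.3 kb (list medians 0.30, 0.26 and 0.66). The median level over the 4 arrays was 6.58 in the shortest and 7.55 in the longest group, so length and level are not separate here. The part of length in the lists above was not tested.

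**Figure D4:**
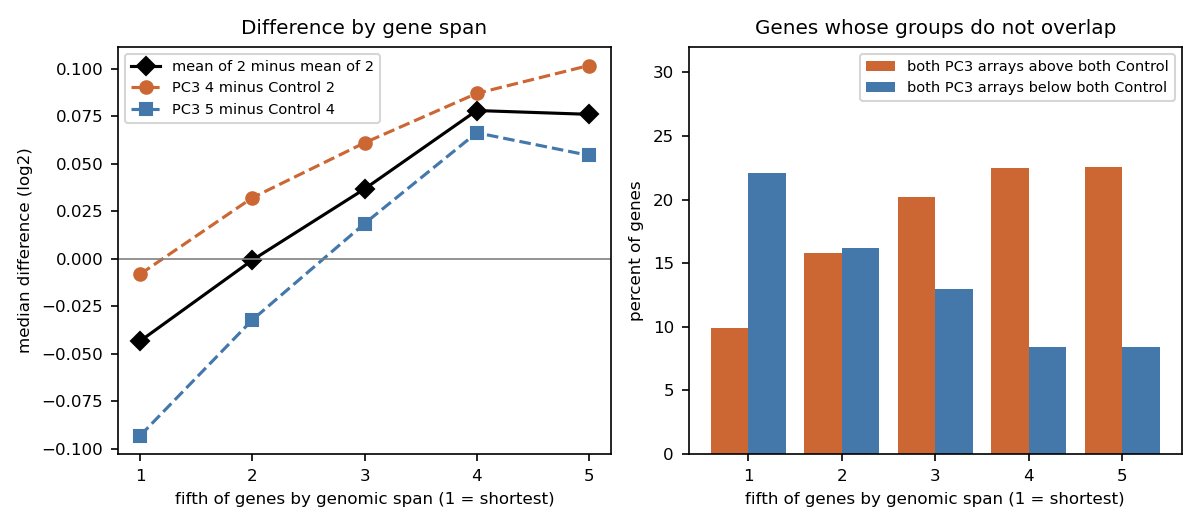
Genes in 5 groups by genomic span, from shortest (1) to longest (5). Left, median difference PC3 minus Control on the log2 scale over all 4 arrays and within each detection pair. Right, percent of genes in each group whose 2 PC3 arrays lie above (orange) or below (blue) both Control arrays. The lower share goes from 22.1% to 8.4% and the higher share from 9.9% to 22.6%.

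Other short genes stood among the 15 lower ones. Pfdn5, a subunit of the prefoldin chaperone, was at 9.62 and 9.49 in Control and 8.80 and 8.78 in PC3 lungs, with little spread in either group. Rnf7, a RING subunit of cullin ubiquitin ligases, was at 9.87 and 9.52 against 8.51 and 8.92, and Cops9, of the COP9 signalosome, at 9.67 and 9.28 against 8.71 and 8.58. Bex2, a small X-linked protein, differed by -0.96 (SE 0.19) and Hilpda, a lipid droplet protein induced by low oxygen, by -0.74 (SE 0.17). Histone genes went both ways: 37 of 72 had lower means, against 43.3% of all genes, and the median was 0.00. Both PC3 arrays lay below both Control arrays for 22 and above them for 14, against 13.6% and 18% of all genes. At an unadjusted p under 0.05, 9 were lower and 0 higher, against 1.9% and 1.4% of all genes. H4c6 was at 8.20 and 8.00 in Control and 7.15 and 7.27 in PC3 lungs, and H1f2, a linker histone, at 8.99 and 9.12 against 8.38 and 8.18. H3c6 was at 9.26 and 9.39 against 9.71 and 9.59. Near-identical histone copies may share probes. Usp17ld, a deubiquitinase of a multicopy family, was at 9.55 and 8.04 against 7.00 and 6.82, with a Control SD of 1.07.

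Among blood cells, Plac8, a cysteine-rich protein of monocytes, neutrophils and lymphocytes, had the smallest p of the genes named by rule. It was at 8.98 and 8.86 in Control and at 7.42 and 7.86 in PC3 lungs, a difference of -1.28 (SE 0.20) with an adjusted p of 0.222 by limma, and PC3 4 was under background. S100a8 and S100a9, the calprotectin subunits of neutrophils, were at 7.35 and 8.54, and 7.62 and 8.71, in Control and at 6.32 and 7.03, and 6.66 and 7.11, in PC3 lungs. The Control lungs differed from each other by about as much as the groups did. Retnlg, a resistin-like protein of neutrophils, was at 6.99 and 6.91 against 6.02 and 6.55, under background. The 14 tested neutrophil genes had a median of -0.13, which was 0.05 in the low-detection pair, -0.30 in the high-detection pair and 0.43 over the 2 members above background on at least 2 arrays.

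B cell genes were lower in 15 of 18 tested members, with 8 that separated the groups, 3 at an unadjusted p under 0.05 and a median of -0.26, which was -0.16 and -0.34 within the pairs and -0.09 without Control 4. Over all genes 43.3% had lower means, 13.6% separated the groups downwards and 1.9% had such a p. Of the 19 B cell genes on the array, 16 were above background on no array. Cd79a, of the B cell receptor complex, was at 7.57 and 7.64 in Control and 7.08 and 6.97 in PC3 lungs, and Cd79b, its partner, at 8.09 and 8.10 against 7.52 and 7.64. Control lungs were within 0.08 of each other for both, and most values of Cd79a lay under background. Xbp1, a plasma cell factor that other secretory cells use too, was at 9.49 and 9.67 against 9.74 and 9.96. T cell genes had 15 of 21 lower and a median of -0.16, with Cd2 at 8.34 and 8.36 against 7.88 and 8.07. Of the killer cell genes, Gzma, granzyme A, was at 7.82 and 7.88 against 6.74 and 7.54. Platelet genes had 11 of 18 lower and a median of -0.19, which was -0.03 without PC3 5, with Ppbp, a platelet chemokine, at 8.60 and 8.79 against 8.24 and 8.31, and Pf4, platelet factor 4, under background at 7.42 and 7.28 against 6.89 and 6.67. The number of blood cells left in each lung is not given in the labels, and its part was not tested; the haemoglobin gene Hba-a1 was at 13.87 and 13.97 in Control and 13.80 and 13.74 in PC3 lungs.

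Alveolar, endothelial, ciliated and fibroblast genes had medians close to 0. All 10 lung identity genes were above background on the 4 arrays, which bears out the labelled tissue, and their median difference was -0.03. Sftpc, a surfactant protein of alveolar type 2 cells, was at 14.03 and 14.02 in Control and 13.86 and 14.04 in PC3 lungs. Alveolar type 1 and type 2 genes had medians of 0.09 and 0.07, endothelial genes -0.05, ciliated cell genes -0.01, and fibroblast and matrix genes 0.00. Of 26 endothelial genes, 17 had lower means, 8 had both PC3 arrays below both Control arrays and 0 had them above. The shares over all genes were 43.3%, 13.6% and 18%. The endothelial median was -0.16 in the low-detection and -0.09 in the high-detection pair. Of 16 alveolar type 1 genes, 12 had higher means, 5 separated the groups upwards and 0 downwards. Cldn18, a tight junction protein of alveolar cells, was at 11.76 and 11.85 against 12.10 and 12.23. Among matrix genes, Dcn, the proteoglycan decorin, was at 9.57 and 9.90 against 10.53 and 10.28, and Col14a1, a fibril-associated collagen, at 7.87 and 7.90 against 8.53 and 8.29, with no overlap for either. Egfl7, an endothelial secreted protein, was at 10.37 and 10.26 against 9.87 and 9.95.

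Cell cycle genes had higher means in 29 of 33 tested members, with 14 that separated the groups, 1 at an unadjusted p under 0.05 and a median of 0.18, which was 0.15 and 0.27 within the pairs. Shares over all genes were 56.7%, 18% and 1.4%. Of the 36 on the array, 31 were above background on no array, so these values are mostly of signal below background. Mcm4, a subunit of the replicative helicase, was at 6.68 and 7.03 in Control and 7.11 and 7.58 in PC3 lungs, and Rrm1, of ribonucleotide reductase, at 7.83 and 8.20 against 8.33 and 8.50. For each, 1 Control lung lay within 0.13 of a PC3 lung.

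From what is known of the study, thrombospondin-1 and prosaposin were of interest. Thbs1 was at 9.50 and 9.88 in Control and at 9.58 and 9.95 in PC3 lungs, a difference of 0.07 (SE 0.21) with overlapping groups. Psap was at 12.05 and 12.24 against 12.36 and 12.27, a difference of 0.17 (SE 0.17), with the lowest PC3 lung 0.03 above the highest Control lung. Inflammatory cytokines and chemokines had a median of 0.05 and 0 of 25 members at an unadjusted p under 0.05 in either direction, but 24 of the 30 on the array were above background on no array. Interferon-stimulated genes had a median of 0.06, which was -0.07 in the low-detection and 0.26 in the high-detection pair.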

How the data were processed

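Expression was measured in lungs of 6 mice on Affymetrix arrays made from 10 ug of RNA each, per the labels. The deposited values are log2 RMA values per transcript cluster, named in the submitters' processing notes, and RMA ties each value to all arrays summarised together. No source used here gives the software version or genome build. Detection percent, probe intensity and fit score came from the authors' chip report, per the file headers. No read depth exists for arrays, so their number limits the precision.

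Of 35556 probe sets, 7116 controls or probe sets without accession were left out, and the dimmest 25% of the other 28440 by mean over the 4 arrays, which left 21330. Symbols were updated through RefSeq (GRCm38.p6) for names: 25004 probe sets had 1 symbol, 2 several and 3434 none. Each gene was taken at its brightest probe set. limma 3.58.1 (R 4.3.3) fitted the 4 arrays with 2 group means and empirical Bayes moderation, two-sided, with Benjamini-Hochberg adjustment over all probe sets at 0.05. The fit was tested on simulated data. P-values measure the spread between 2 mice a group.

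Genes were named by smallest p among those with at least 1.5-fold difference, no overlap and a higher group above background, 15 a side. Each list described adds up to 4 members in its direction and 2 in the other. Members, lists and tests were chosen with earlier results of these data known. Rpl26, Rpl35, Rpl36a, Sgk1, Hba-a1 and the unnamed transcripts were chosen after their values were seen. Alternatives changed arrays, filter, scaling, moderation, block and left-out lungs. Coordinates of unnamed transcripts are those of the deposited annotation (NCBIM37).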

Additional observations from a re-analysis of the deposited data

How the results depend on the processing

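The count of probe sets with an adjusted p under 0.05 was 0 by limma (273 higher and 640 lower at an unadjusted p under 0.05). It was also 0 with all 6 arrays, 3 other filters on dim probe sets, 75th percentile scaling, an intensity trend and robust moderation. The fit with 5 arrays, without LN4 3, repeats the main fit by design, since the lone LN4 array adds no measure of spread. The count was 24 with median centring, all lower, of which 20 were Snord116 copies and 4 unnamed. It was 44 with the detection pair as a block, all lower, of which 21 were Snord116 copies and 16 unnamed, with Plac8, Rny1, Snora73a, S100a8, S100a9 and 2 probe sets of Rnu2-10 beside them. Leaving out 1 lung gave between 0 and 787, with 523 without PC3 4, 787 without PC3 5 and 0 without either Control lung. In these fits the lone lung is assumed to vary like the other group, and without a PC3 lung the spread is that of the 2 Control lungs only. Of the probe sets called without PC3 4 and without PC3 5, 104 were shared in the same direction (17 higher, 87 lower) and 63 in opposite directions. Of the 30 named genes' differences under another setting, 218 stayed on the same side of the threshold and 52 passed it. Their direction was fixed by choosing groups that do not overlap. Of 49 list medians, 2 changed sign with 75th percentile scaling, 3 with median centring, 5 with the dimmest 50% left out, 7 over members above background on 2 arrays, 6 without Control 2, 8 without Control 4, 5 without PC3 4, 9 without PC3 5, 11 in the low-detection and 7 in the high-detection pair, the squamous list among those without PC3 4 (-0.18). Animals could not be paired by their labels, because the groups share only the replicate number 4. The detection pairs used as a block were formed from detection shares and pair no animals. Counts without PC3 4 were added after seeing the data. Signal below background limits Snord116, Rny1 and most small nucleolar RNA, B cell, T cell, cytokine, neutrophil, platelet and cell cycle genes.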

Other observations

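Enzymes that metabolise foreign compounds had higher means in 27 of 33 tested genes, of which 13 separated the groups and 4 had an unadjusted p under 0.05. The shares over all genes were 56.7%, 18% and 1.4%. The median difference of these enzymes was 0.14 (0.25 in the low-detection and 0.02 in the high-detection pair). Without Control 2 that median was -0.01. Beside Cyp2a5, Gsto1, a glutathione transferase, was at 10.20 and 10.53 in Control and 10.80 and 10.91 in PC3 lungs, and Fmo2, the main flavin monooxygenase of lung, at 11.62 and 12.12 against 12.41 and 12.33. Gstm2 had the lower mean, at 9.32 and 9.16 against 8.74 and 8.95. Genes of lysosomes and the vacuolar proton pump had 26 of 34 higher means and a median of 0.12. Atp6v0d1, a pump subunit, was at 8.44 and 8.94 against 9.20 and 9.17, while Cd63, a lysosomal tetraspanin, was at 10.34 and 10.03 against 9.33 and 9.57.

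Heat shock genes had 17 of 21 higher means, against 56.7% of all genes, and a median of 0.16. The inducible chaperone Hspa1a was at 7.60 and 7.56 in Control and 8.20 and 8.14 in PC3 lungs, and its partner Dnajb1 at 7.70 and 8.22 against 8.38 and 8.82. Hspe1, the small mitochondrial chaperonin, was at 10.39 and 10.21 against 8.99 and 9.96, so that its lower mean was mostly that of PC3 4. Genes of fatty acid and sterol synthesis had 26 of 31 higher means and a median of 0.12, with 0 at an unadjusted p under 0.05. Of hypoxia and glycolysis genes 21 of 24 were higher, with Ldha, lactate dehydrogenase A, at 10.53 and 10.74 against 11.03 and 11.01, whereas Higd1a, a mitochondrial protein of the hypoxia response, was at 8.55 and 8.33 against 7.46 and 8.14. Without Control 2 the medians of the lysosome, heat shock, sterol and hypoxia genes were 0.05, 0.08, 0.04 and 0.08.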
